A study of Drosophila melanogaster with 8 samples.

Results

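The ecdysone receptor and 9 genes of its response were followed through the open chromatin of the adult fly brain. The 10 genes were EcR, usp, br, Eip74EF, Eip75B, Eip93F, Hr3, Hr4, Hr39 and ftz-f1, of 13945 protein-coding genes on the X chromosome and the autosomes. Every peak that overlapped the gene body of a member or the 1 kb on either side of it was taken, from 4 lists of ATAC-seq peaks. ATAC-seq marks open DNA through the sequencing adapters that the Tn5 transposase inserts there. Peaks of different lists that overlapped by at least 1 bp were joined into a region, which gave 114 regions at the members, of 14709 in all. The cells were central brain neurons of 2 to 7 day adult flies of the w1118 strain, with optic lobes removed. All flies carried UAS-mCD8-GFP/MB247-Gal80 and Fru-GAL4 over TM2 or TM6B, so that GFP marked cells transcribing fruitless (fru), and these were sorted as fru+ beside a matched number of GFP-negative cells (fru-). GAL80 kept GFP off in mushroom body Kenyon cells, which therefore fell in the fru- pools even where they transcribe fru. Sorting by reporter in each sex gave 4 groups, fru+ and fru- from males and the same from females, with 2 replicates each and 8 samples in all. FruM, the male fru protein, is made in males alone.

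Ecdysone is the steroid hormone that times moulting and metamorphosis in insects. It binds a heterodimer of the nuclear receptors EcR and ultraspiracle (usp). The receptor switches on early genes, among them br, Eip74EF and Eip75B, which encode transcription factors, and these act on a later tier that includes Hr3, Hr4 and Hr39. The nuclear receptor ftz-f1 makes tissues competent for the next pulse, and Eip93F acts late, in the change to adult fates. In the nervous system the same genes take part in the remodelling of neurons and in the timing of neuron identity, and EcR is also present in adult neurons.

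Sequences are shown for 6 sites, at which the lists differed or, in Eip74EF, put their summits within 2 bp. The 151 bases centred on the summit are given for an intron site of Eip75B close to its 5' end (proximal, chr3L:18057098-18057248, summit of male fru+), another Eip75B intron site (distal, chr3L:17984176-17984326, male fru+), an intron site of br (chrX:1620511-1620661, female fru+), an intron site of Hr39 (chr2L:21244238-21244388, female fru+) and the strongest intron site of Eip74EF (chr3L:17590595-17590745, male fru+). For Hr4 the 137 bases directly before its first start site are given (chrX:1941803-1941939). All are plus strand sequence of dm6, taken from RefSeq. Capitals mark CAAGGTCA, the kind of site bound by FTZ-F1 and Hr39, here on the minus strand and holding the nuclear receptor half-site AGGTCA.
Eip75B proximal: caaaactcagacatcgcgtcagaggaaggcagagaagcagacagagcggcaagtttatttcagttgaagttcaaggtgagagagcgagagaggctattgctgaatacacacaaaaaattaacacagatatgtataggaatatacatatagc
Eip75B distal: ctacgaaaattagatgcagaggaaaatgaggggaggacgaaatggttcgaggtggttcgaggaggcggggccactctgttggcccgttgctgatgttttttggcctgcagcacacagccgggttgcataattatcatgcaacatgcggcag
br intron: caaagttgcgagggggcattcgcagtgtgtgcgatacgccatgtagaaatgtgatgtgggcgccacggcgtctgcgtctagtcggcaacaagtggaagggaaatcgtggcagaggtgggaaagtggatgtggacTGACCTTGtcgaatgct
Hr39 intron: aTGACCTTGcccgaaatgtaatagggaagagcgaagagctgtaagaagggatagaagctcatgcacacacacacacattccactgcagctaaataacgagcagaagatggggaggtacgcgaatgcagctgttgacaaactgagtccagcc
Eip74EF intron: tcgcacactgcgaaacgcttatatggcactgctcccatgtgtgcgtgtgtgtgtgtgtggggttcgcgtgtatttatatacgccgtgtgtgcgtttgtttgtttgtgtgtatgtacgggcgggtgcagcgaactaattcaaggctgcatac
Hr4 upstream: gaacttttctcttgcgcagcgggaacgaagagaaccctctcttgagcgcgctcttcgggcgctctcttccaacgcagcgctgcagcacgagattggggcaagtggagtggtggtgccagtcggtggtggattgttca

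There was 1 list per group, described in the design text as pooled from both replicates, so no value below has a replicate error and no difference between groups could be tested. The names of the peaks, however, point to replicate 1 for both lists from males and to replicate 2 for those from females, and if these names hold, sex and replicate cannot be told apart. In female fru+ and in male fru-, the free-text description of each sample names the other of these groups, and the titles were followed. With these, the median log2 ratio of fold enrichment over all shared X regions was -0.24 in both pairs of male over female lists, against -0.08 and -0.05 in the pairs within a sex. On the autosomes the medians of these pairs ran from -0.07 to 0.00. The lower X values thus fell in the lists titled male. Males carry fewer copies of the X than females, which the authors describe as a source of bias between the sexes. The lists held 11206 to 11602 peaks, and the background coverage recovered from the peak values ran from 14.25 fragments in female fru+ to 18.87 in male fru-. A peak at the start site was found in every list for 4 of 4 neuron markers (nSyb, elav, brp, Syt1), for 5 of 5 Kenyon cell markers, for 1 of 5 glia markers (nrv2) and for 0 of 3 neuroblast markers. The Kenyon cell markers had such peaks in the fru+ lists too, although GAL80 kept Kenyon cells out of those pools. A peak at a start site thus does not show the cell type, and the share of all genes with one was not taken. Each list mixes many types of neuron, so fewer cells open at a site and less opening per cell cannot be told apart.

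The members were open in all groups. They held 101 peaks in male and 101 in female fru+ neurons, and 102 in male and 104 in female fru- neurons. These peaks covered 61446 bp in male and 67178 bp in female fru+ neurons, and 67539 bp in male and 68825 bp in female fru- neurons, so male fru+ had the least. All peaks covered 7704917 bp in male and 7589092 bp in female fru+ neurons, and 7795365 bp in male and 7886486 bp in female fru- neurons. Over all peaks female fru+ thus had the least. On the autosomes the 7 members had 50765 bp covered in male fru+, against 52098 to 56025 bp in the other lists. On the X, usp, br and Hr4 together had 10681 bp (fru+) and 11514 bp (fru-) covered in males, and 15080 bp (fru+) and 15037 bp (fru-) covered in females. Most of this gap lay at br, while usp had 1325 bp and Hr4 5415 bp in male fru+, against 1347 bp and 5917 bp in female fru+.

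**Figure D1:**
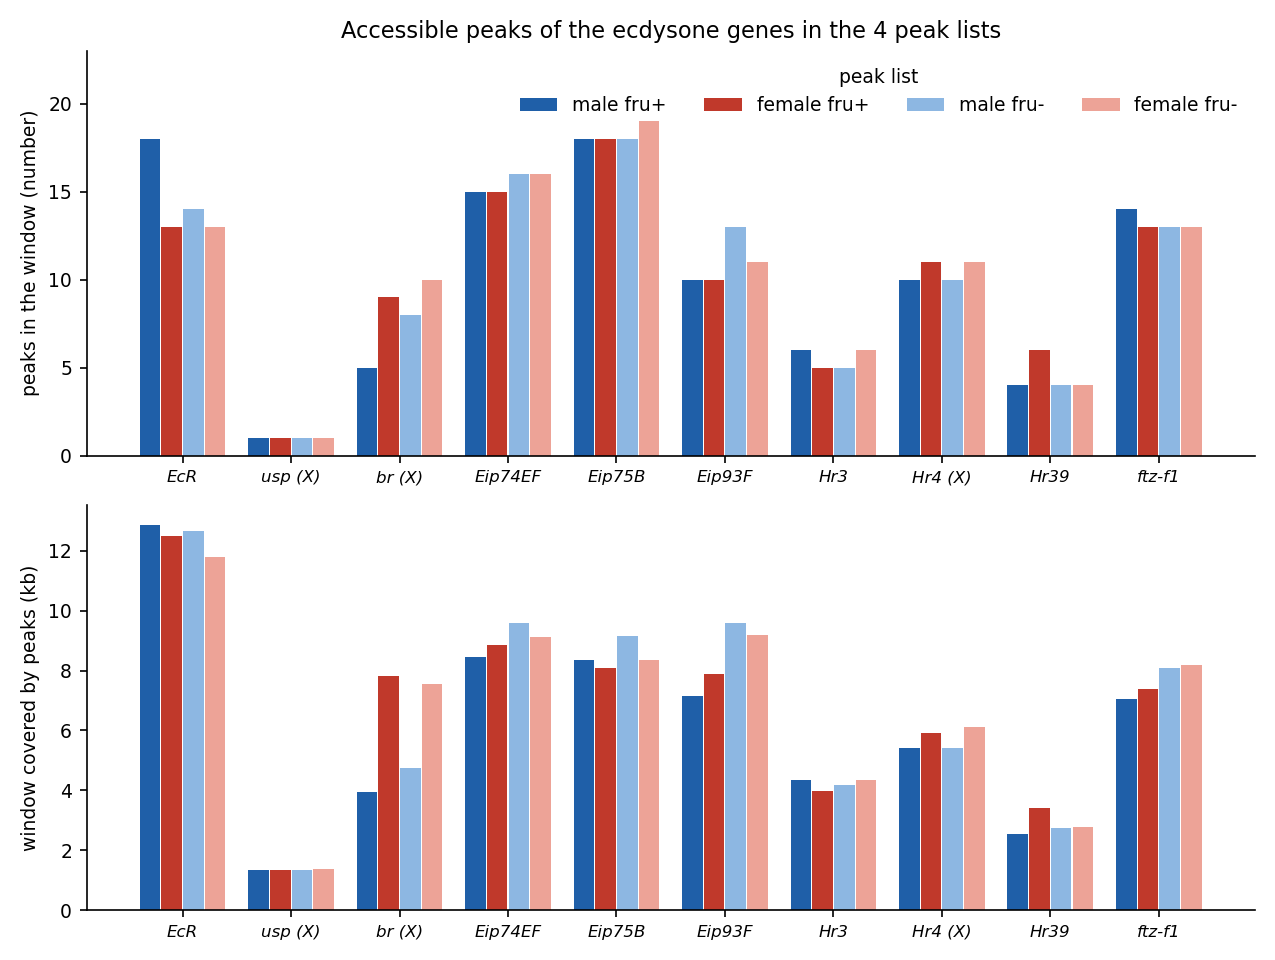
Number of peaks (top) and kilobases covered by peaks (bottom) in the window of each gene, 1 bar per peak list; X-linked genes carry an X. EcR had 18 peaks in male fru+ against 13 to 14 in the other lists, and br had 3941 bp covered in male fru+ against 4758 to 7816 bp in the other lists.

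Most member regions were open in every group. Of 92 autosomal member regions, 70 were present in all 4 lists (76.1%), against 57.8% of all autosomal regions. Of 22 regions on the X, 15 were present in all 4 lists (68.2%), against 48.9% of all X regions. Strength is the highest percentile rank of a region's peaks by -log10 q within their list, and its median was 66.3 over member regions and 44.3 over all regions. Strength above 50 was reached by 65.8% of member regions and by 44.3% of all regions. Its median was 75.6 in member regions found in all lists and 28.2 in those that were not, and the part of strength in the higher share was not tested. Of the 114 regions, 81 lay in introns, 24 at promoters (within 50 bp of a start site), 2 in 5' UTRs, 3 in other exons and 4 between genes. Of the intron regions 60 were in all 4 lists, and of the promoter regions 19.

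Male fru+ and male fru- neurons differ in fru transcription and FruM together, and the pools also hold different neurons, with the Kenyon cells in fru-. On the autosomes 8 of 89 member regions (8.99%) were in male fru+ and not in male fru-, against 14.9% of all regions, and 7 (7.87%) were in male fru- and not in male fru+, against 14.5%. On the X the counts were 0 of 17, against 11.5%, and 2 of 17 (11.8%), against 10.8%. Between male and female fru+ neurons, which differ in sex and FruM, 9 of 88 autosomal regions (10.2%) were in male fru+ alone, against 18.4%, and 6 (6.82%) in female fru+ alone, against 11.9%. Each share rests on few regions, the members' strength was above that of all regions, and no difference from all regions was tested.

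On the X the lists of the sexes differed in 1 direction, and all X regions leaned the same way. The lower copy number of the X in males was not separated from a sex difference in opening. Of 21 X-linked member regions 6 (28.6%) were in female fru+ and not in male fru+, against 31.2% of all X regions, and 0 were in male fru+ and not in female fru+, against 6.71%. Between the fru- lists 4 of 21 (19%) were in female fru- and not in male fru-, against 32.4%, and 0 were in male fru- and not in female fru-, against 4.91%. The regions in the female list of a pair and not in its male list were all at br and Hr4. Some of those missing from male fru+ were present in male fru-. At so few regions their shares are no result about the members.

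On the autosomes the remaining pairs had the fewest discordant member regions. Female fru+ and female fru- neurons differ in fru transcription without FruM, and likewise in the neurons that they hold. On the autosomes 3 of 84 member regions (3.57%) were in female fru+ alone, against 9.88% of all regions, and 5 (5.95%) in female fru- alone, against 13.2%. On the X 1 of 22 regions (4.55%) was in female fru+ alone, against 10.8%, and 1 in female fru- alone, against 13.2%. Male and female fru- neurons differ in sex, and the Kenyon cells in them that transcribe fru can hold FruM in males alone. Of 84 autosomal member regions 3 (3.57%) were in male fru- alone, against 10.6%, and 3 in female fru- alone, against 7.66%.

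Peak heights were compared at regions present in both lists of a pair, as the log2 ratio of fold enrichment (the summit pileup over the local background) minus the median of all shared regions on the same chromosome class. This centring took out 0.24 on the log2 scale on the X between the sexes and at most 0.08 elsewhere. Past 1.5-fold in either direction were 2 of 74 autosomal member regions between male fru+ and male fru- (2.7%), against 4.91% of all regions. On the X it was 1 of 15 (6.67%), against 2.87%. Between male fru+ and female fru+ there were 4 of 73 on the autosomes (5.48%), against 3.93%, and 2 of 15 on the X (13.3%), against 9.87%. Between female fru+ and female fru- there were 0 of 76 on the autosomes, against 1.41%, and 0 of 20 on the X, against 1.9%. Between male fru- and female fru- there were 0 of 78 on the autosomes, against 0.241%, and 0 of 17 on the X, against 7.16%. The 7 member regions past 1.5-fold were all so in a pair that held male fru+, and none lay at a start site of a member. The shares lay near those of all regions, so the members did not stand out by these counts. The 2 pairs share the male fru+ list, so a region past 1.5-fold in both is not a repeat observation.

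**Figure D2:**
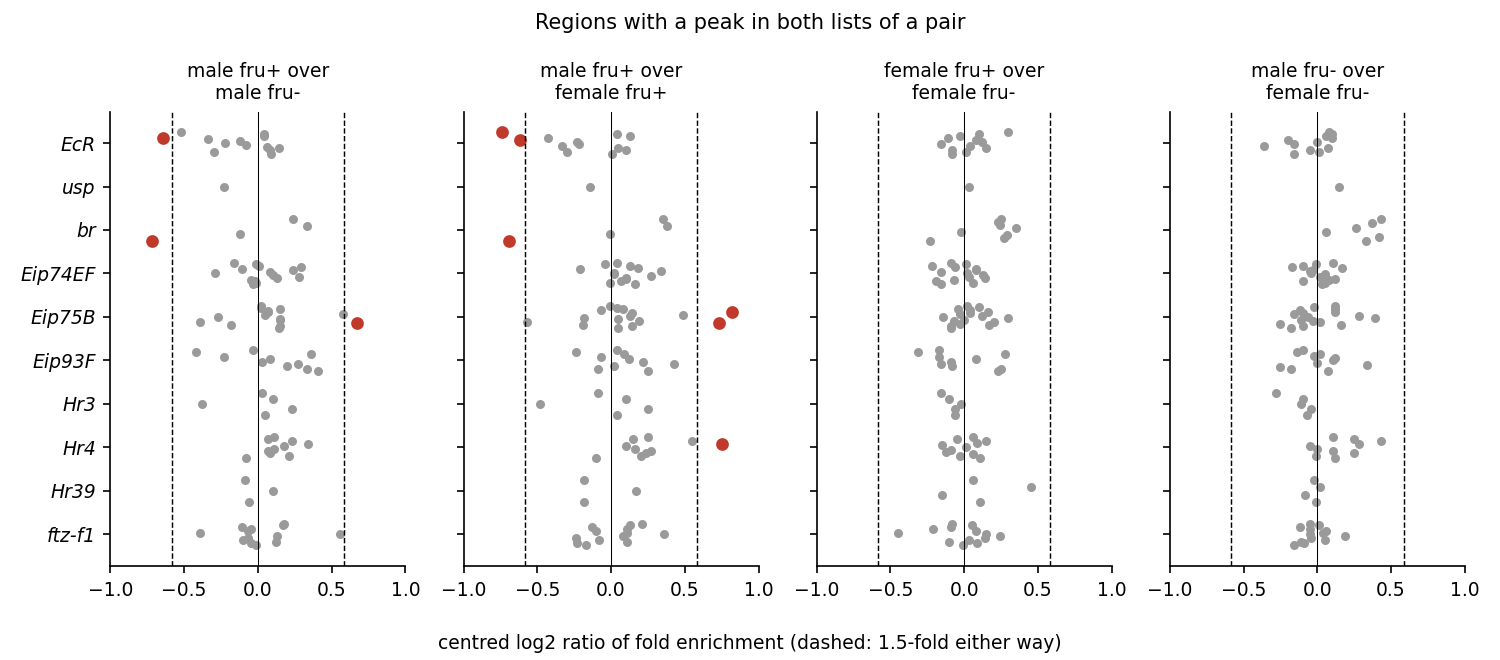
Centred log2 ratio of fold enrichment for each member region present in both lists of a pair, 1 panel per pair and 1 row of points per gene; dashed lines mark 1.5-fold and red points lie past it. Red points appear for EcR, br, Eip75B and Hr4 in the panels with male fru+, and none appear in the other panels.

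EcR, the hormone-binding subunit, lies on chr2R:6087873-6169087 on the minus strand and held the most covered sequence of the members in bp, 15% of its window, the 93.3 percentile among genes of its length decile. Peaks numbered 18 in male and 13 in female fru+ neurons, and 14 in male and 13 in female fru- neurons, and they covered 12873, 12484, 12671 and 11807 bp in that order. All 4 start sites of EcR were within 50 bp of a peak in every list. At EcR-RA the fold enrichment was 7.1 in male and 7.14 in female fru+ neurons, and 7.01 in male and 7.84 in female fru- neurons. The summit there fell on the same base in all lists. At EcR-RD and EcR-RE the values were 4.38, 4.13, 4.37 and 4.52, and at the region that holds EcR-RB, EcR-RC and EcR-RG they were 5.21, 6.19, 5.94 and 5.91. The region at EcR-RA also holds the start of tRNA:Arg-ACG-1-3, so its peak cannot be assigned to EcR alone.

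EcR held both peaks that male fru+ had beyond the other lists and peaks that were lower there. Of the 16 regions 12 were in all lists, and 3 were in male fru+ alone. Among these 3, a region at the promoter of tRNA:Asn-GTT-1-6 (chr2R:6162261-6162585) had fold enrichment 2.22 and strength 32.3, and one at the promoter of tRNA:Asn-GTT-1-1 (chr2R:6152637-6152886) had 1.85 and 22.6. The third was intergenic (chr2R:6087280-6087562), with 2.9 and 19.2. These tRNA genes lie inside EcR and belong to a family of near-identical copies, so read placement there may be uncertain, which was not tested. Another weak region (chr2R:6145509-6145778) was present in both male lists alone, with 1.66 in male fru+ and 1.85 in male fru-.

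In 3 intron regions of EcR male fru+ had the lowest peak and passed 1.5-fold in a pair. At chr2R:6095707-6096731, 72.9 kb from the 5' end, the fold enrichment was 2.9 in male and 4.92 in female fru+ neurons, and 4.38 in male and 4.14 in female fru- neurons. The centred log2 ratio of male fru+ over female fru+ was -0.74, with a 95% counting interval of -1.28 to -0.22. The summit pileups behind it were 54 fragments in male and 74 in female fru+ neurons, and 86 in male and 71 in female fru- neurons. The interval covers counting error only and is no test, since the region was picked for its ratio. At chr2R:6120311-6121265, 48.3 kb from the 5' end, the values were 3.63, 4.95, 5.95 and 5.56, and male fru+ over male fru- was -0.64 (-1.01 to -0.28). A neighbouring region, chr2R:6121900-6122477, had 2.66, 4.14, 3.54 and 4.05, and male fru+ over female fru+ was -0.62 (-1.11 to -0.14). At the strongest intron region, chr2R:6101982-6103220, the values were 5.85, 5.76, 5.99 and 5.58, so the lower peaks in male fru+ did not extend over the whole gene.

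**Figure D3:**
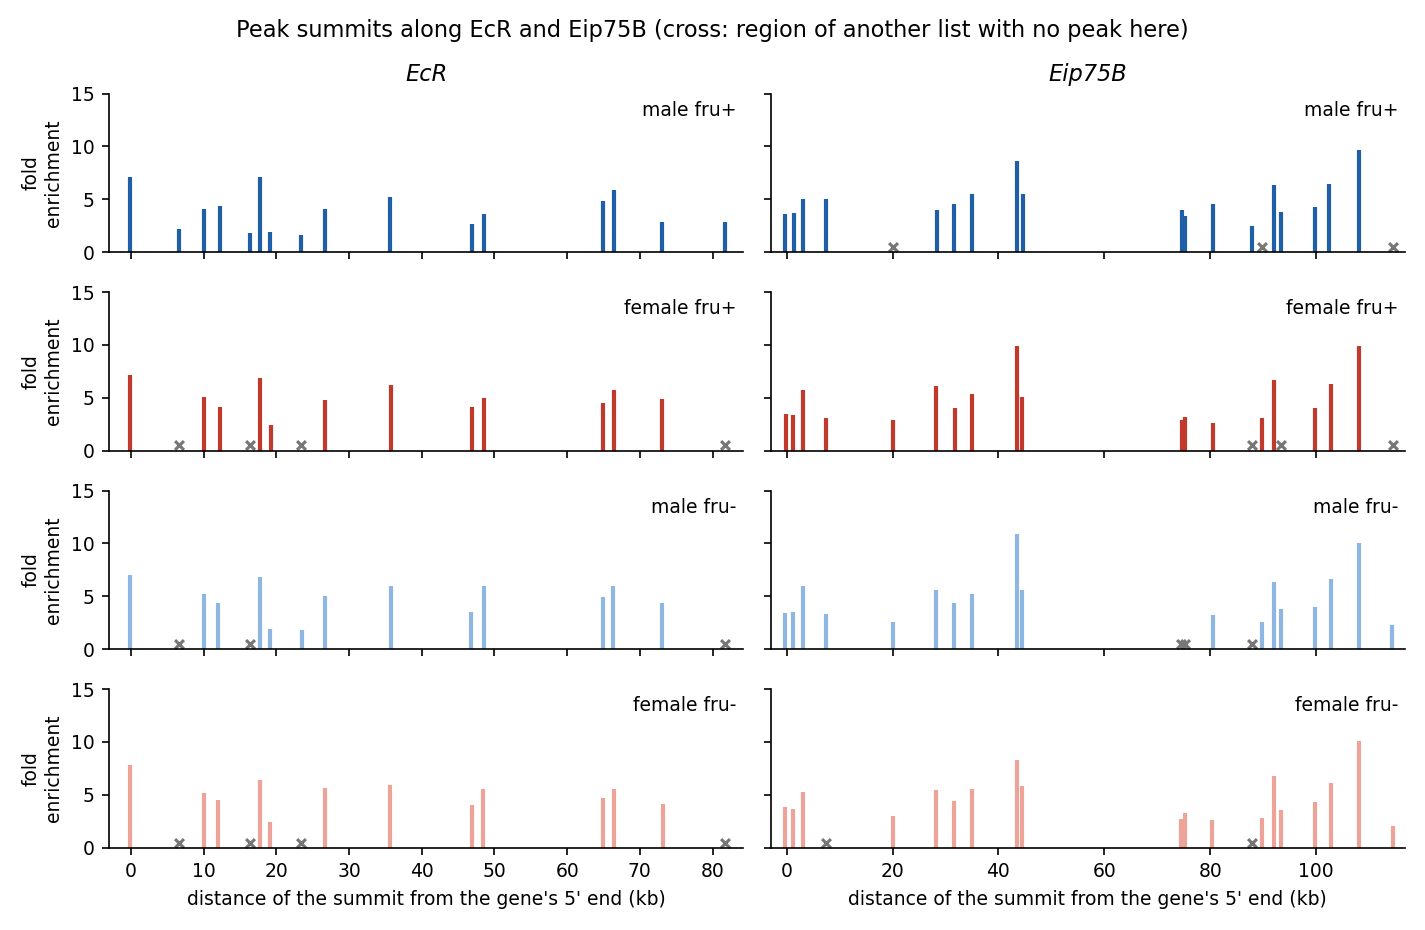
Fold enrichment at the summit of each region along EcR (left) and Eip75B (right), by distance of the summit from the gene's 5' end in kb, 1 row per list; a cross marks a region with no peak in that list. The crosses in EcR fall in the lists other than male fru+, and those in Eip75B are spread over all 4 lists.

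The partner gene usp, which encodes the fly homologue of RXR, lies on chrX:2038798-2042311 and had 1 peak in every list, over both of its start sites. It covered 1325 bp in male and 1347 bp in female fru+ neurons, and 1354 bp in male and 1360 bp in female fru- neurons. The fold enrichment was 6.96, 9.05, 8.62 and 9.14 in that order, lowest in male fru+. Centred on the X, male fru+ over male fru- was -0.23 and male fru+ over female fru+ was -0.14, inside 1.5-fold. The same region covers start sites of Actn and CG4313, so the peak cannot be assigned to usp alone.

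The early gene br (broad), a zinc finger factor of the pupal switch, lies on chrX:1575132-1664869 and varied most of the members in covered sequence. Peaks numbered 5 in male and 9 in female fru+ neurons, and 8 in male and 10 in female fru- neurons. They covered 3941 bp in male and 7816 bp in female fru+ neurons, and 4758 bp in male and 7554 bp in female fru- neurons. The log2 ratio of covered sequence was -0.99 for male fru+ over female fru+ and -0.67 for male fru- over female fru-. Over genes of similar length on the X the median of these ratios was -0.31 and -0.38, and br stood at the 20.4 and 30.6 percentile. The lower coverage of br in males thus lay inside the spread of the X-linked genes of its length.

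At br the lists also differed at an intron region open in all of them. The region chrX:1620126-1621069, whose summit sequence is shown above, had fold enrichment 3.43 in male and 6.51 in female fru+ neurons, and 5.97 in male and 5.58 in female fru- neurons. The centred log2 ratio was -0.72 (counting interval -1.18 to -0.28) over male fru- and -0.69 (-1.13 to -0.26) over female fru+. The summit pileup was 64 fragments in male and 162 in female fru+ neurons, and 127 in male and 168 in female fru- neurons. A neighbouring intron region, chrX:1614077-1615091, had fold enrichment 5.59, 6.62, 6.39 and 5.62. Of the 10 br regions 4 were in all lists. An intron region at chrX:1599031-1600108 was absent from male fru+ and had 3.59 in female fru+, and 2.97 in male and 2.92 in female fru- neurons. At the 3' end a region over the promoter of the neighbour dor (chrX:1664918-1665269) was in both female lists alone, with 4.06 in female fru+ and 4.94 in female fru-. Much of br overlaps the gene Mur2B, and the remaining 4 regions not in all lists had strength of at most 14.5.

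Most br start sites had no peak. Of its 9 start sites, that of br-RH alone had a peak within 50 bp, in male fru+, female fru+ and female fru-, and in male fru- the nearest peak was 55 bp away. The fold enrichment of that region was 4.68 in male and 4.23 in female fru+ neurons, and 3.91 in male and 4.43 in female fru- neurons. At the start site shared by 8 br transcripts (chrX:1612341) the nearest peak lay 1775 bp away in male and 1736 bp in female fru+ neurons, and 1738 bp in male and 1782 bp in female fru- neurons. This start, shared by more annotated br transcripts than any other, was thus outside the peaks of all groups, and which start is used was not measured.

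Eip74EF, an ETS-domain factor, lies on chr3L:17558672-17619325 on the minus strand and was among the steadiest members. Peaks numbered 15 in male and 15 in female fru+ neurons, and 16 in male and 16 in female fru- neurons, and 14 of its 16 regions were in all lists. Its 3 start sites were within 50 bp of a peak in every list. At the start of Eip74EF-RA, Eip74EF-RC and Eip74EF-RE the fold enrichment was 8.39 in male and 7.59 in female fru+ neurons, and 9 in male and 8.78 in female fru- neurons. At that of Eip74EF-RB and Eip74EF-RD it was 5.37, 4.3, 4.8 and 4.98. The strongest intron region (chr3L:17590361-17591347) had 10.6, 10.6, 10.4 and 10, and its summits lay within 2 bp of each other. Every centred ratio of Eip74EF lay between -0.29 and 0.34.

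The 2 Eip74EF regions that were not in all lists were of moderate strength. The intron region chr3L:17572165-17572486 was absent from male fru+ and had 2.17 in female fru+, and 2.4 in male and 2.13 in female fru- neurons. The intron region chr3L:17584600-17584895 was absent from female fru+, the shallowest list, and had 2.74 in male fru+ neurons, and 3.52 in male and 3.39 in female fru- neurons. The window also takes in the promoter of the neighbour CycT, open in all lists with 11.6, 11.5, 13.7 and 12.6.

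Eip75B, a haem-binding nuclear receptor that represses Hr3 activity, lies on chr3L:17950953-18064696 on the minus strand. It is the longest member and had the most regions that differed between lists, 8 of 21. Peaks numbered 18 in male and 18 in female fru+ neurons, and 18 in male and 19 in female fru- neurons, so like totals hid different sets of regions. Of its 7 start sites those of Eip75B-RD and Eip75B-RE had a peak in every list. At Eip75B-RD the fold enrichment was 6.41 in male and 6.32 in female fru+ neurons, and 6.67 in male and 6.11 in female fru- neurons, and at Eip75B-RE it was 5, 5.77, 5.95 and 5.3. At Eip75B-RA a peak (chr3L:17971156-17971434) was present in male fru+ with 3.85, in male fru- with 3.85 and in female fru- with 3.53, and absent from female fru+, where the nearest peak was 988 bp away. The start sites of Eip75B-RB, Eip75B-RC and Eip75B-RG had no peak within 500 bp in any list, and that of Eip75B-RF had one at 100 to 128 bp.

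Both Eip75B sites whose sequences are shown were highest in male fru+. At the proximal site (chr3L:18057058-18057384), 7.5 kb into the gene, the fold enrichment was 5.02 in male fru+, 3.06 in female fru+ and 3.32 in male fru-, with no peak in female fru-. The summit pileups were 154 fragments (95% exact Poisson interval 131 to 180) in male fru+, 69 (53.7 to 87.3) in female fru+ and 116 (95.9 to 139) in male fru-. The centred log2 ratio was 0.73 (counting interval 0.31 to 1.16) for male fru+ over female fru+ and 0.67 (0.31 to 1.03) for male fru+ over male fru-. At the distal site (chr3L:17983835-17984482), 80.5 kb into the gene, the values were 4.59 in male and 2.62 in female fru+ neurons, and 3.22 in male and 2.64 in female fru- neurons. Male fru+ over female fru+ was 0.82 (0.26 to 1.41), and male fru+ over male fru- was 0.58 (0.10 to 1.08), just under 1.5-fold.

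Other Eip75B intron regions were present in some of the lists. The region chr3L:17976591-17976863 was in male fru+ alone, with 2.44. The region chr3L:17974714-17974958 was absent from male fru+ and had 3.08 in female fru+, and 2.56 in male and 2.86 in female fru- neurons. Neighbouring regions were absent from male fru- alone. At chr3L:17990005-17990274 the values were 4.01 in male fru+, 2.88 in female fru+ and 2.76 in female fru-, and at chr3L:17989248-17989509 they were 3.43, 3.15 and 3.33. These absences were thus not of 1 pattern, and fold enrichment in these regions did not exceed 4.01. At chr3L:18036132-18036662, present in all lists, male fru+ was lowest, with 4.04 against 6.08 in female fru+, and 5.59 in male and 5.49 in female fru- neurons, a centred log2 ratio of -0.57 over female fru+, just under 1.5-fold.

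**Figure D4:**
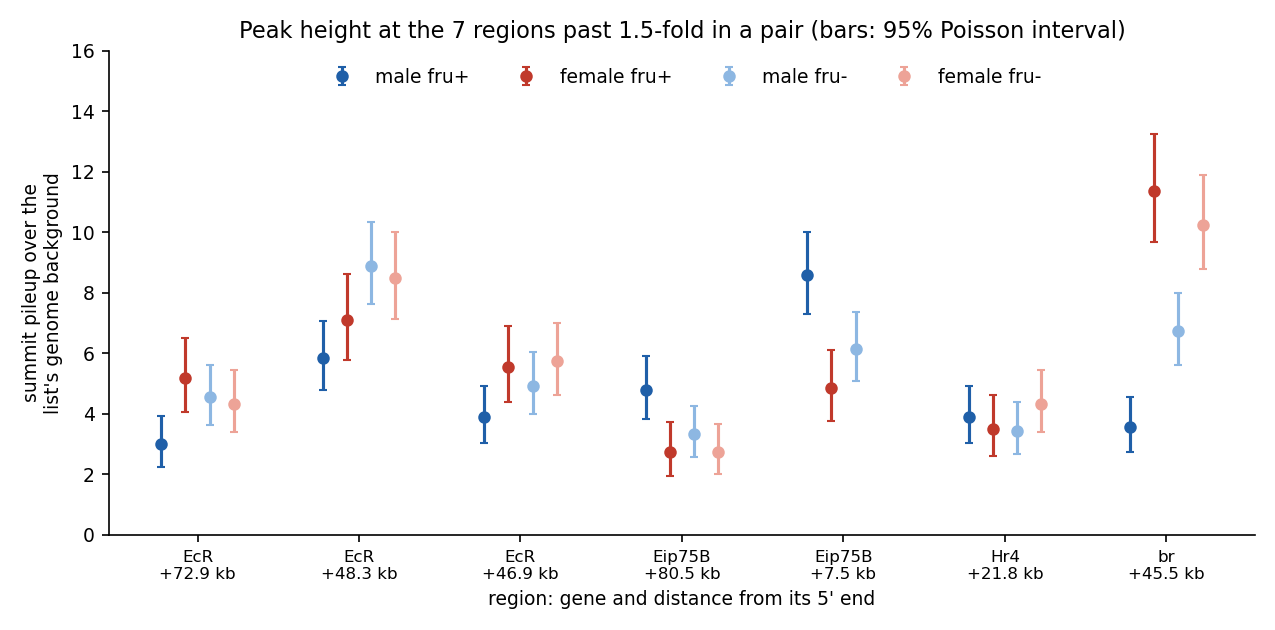
Summit pileup divided by the genome background of the list, with 95% exact Poisson intervals that cover counting error only, at the 7 member regions past 1.5-fold in a pair; the x axis gives the gene and the distance of the region from its 5' end. Male fru+ has the lowest point at the 3 EcR regions and at br, a gene on the X, and the highest at both Eip75B regions.

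Among the receptors of the later tier, Hr3, an activator of ftz-f1 at the onset of metamorphosis, lies on chr2R:10203995-10237348 and held 6 peaks in male and 5 in female fru+ neurons, and 5 in male and 6 in female fru- neurons. Of its 3 start sites 2 had a peak in every list. At that of Hr3-RC and Hr3-RI the fold enrichment was 8.03 in male and 7.92 in female fru+ neurons, and 8.16 in male and 8.54 in female fru- neurons. At that of Hr3-RA, Hr3-RF and Hr3-RH it was 8.91, 7.6, 7.99 and 8.21. An intron region (chr2R:10219680-10219940) was in female fru- alone, with 3.74 and strength 34.9. At chr2R:10224635-10225580 male fru+ was lowest, with 3.68 against 5.18 in female fru+, and 5.06 in male and 5.44 in female fru- neurons. Both of these intron regions lie where CG12912 and CG46321 overlap Hr3, and each start site region also holds a start of CG12912 or CG46321, so none can be assigned to Hr3 alone.

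Hr4, a repressor within the ecdysone hierarchy, lies on chrX:1941940-2007956 and held the highest fold enrichment of a member region in male fru+ and in female fru-, though not in the other lists. Peaks numbered 10 in male and 11 in female fru+ neurons, and 10 in male and 11 in female fru- neurons. The difference lay at its first start site (chrX:1941940), which 7 transcripts share and whose upstream sequence is shown. A peak there (chrX:1941803-1942140) had fold enrichment 4.85 in female fru+ and 4.83 in female fru-, and the nearest peak lay 1291 bp away in male fru+ and 1316 bp away in male fru-. The summit pileups were 73 fragments in female fru+ and 83 in female fru-. Of all X regions 13.4% were likewise in both female lists alone. Males carry fewer copies of the X, and the part of this in the absence was not tested. The other 10 regions of Hr4 were in all lists. That region (chrX:1975839-1976621, in a 5' UTR) had 13.4 in male and 13.1 in female fru+ neurons, and 13.5 in male and 14.7 in female fru- neurons. A weak intron region (chrX:1963589-1963841) had 3.11, 2.17, 2.58 and 2.5, and its centred log2 ratio of male fru+ over female fru+ was 0.75 (0.21 to 1.31).

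Hr39, a receptor related to ftz-f1, lies on chr2L:21237250-21259675 and held 4 peaks in male and 6 in female fru+ neurons, and 4 in male and 4 in female fru- neurons. Its single start site had a peak in every list, with fold enrichment 8.2 in male and 9.38 in female fru+ neurons, and 9.17 in male and 9.3 in female fru- neurons. The region also holds the start of mir-9374. The intron site shown (chr2L:21244079-21244459) was absent from male fru+ and had 4.33 in female fru+, and 3.32 in male and 3.28 in female fru- neurons. Of its 7 regions 3 were in all lists, and apart from the site shown those that were not had strength of at most 19.3. The log2 ratio of covered sequence was -0.41 for male fru+ over female fru+, the 4.59 percentile among genes of its length decile, and 0.30 for female fru+ over female fru-, the 92.7 percentile. These were the lowest and the highest percentiles over all 10 members in the 4 pairs, so they are picked extremes and were not tested. The intron region chr2L:21250471-21251192 was like in all lists, with 10.4, 9.39, 10.2 and 10.8.

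The competence factor ftz-f1 lies on chr3L:18750607-18801309 on the minus strand, and all of its 13 regions were in all lists. Peaks numbered 14 in male and 13 in female fru+ neurons, and 13 in male and 13 in female fru- neurons, the additional one being a region split in 2. Of its 3 start sites 2 had a peak in every list. At ftz-f1-RB the fold enrichment was 11.2 in male and 12.7 in female fru+ neurons, and 11.8 in male and 13.2 in female fru- neurons, with the summit on the same base throughout. At ftz-f1-RC and ftz-f1-RD it was 9.28, 8.7, 10.1 and 10.4. The region at ftz-f1-RB also holds the start of lncRNA:CR45939. The intron region chr3L:18781641-18782113 was lower in both fru+ lists, with 4.75 in male and 4.46 in female fru+ neurons, and 6.54 in male and 6.32 in female fru- neurons. No centred ratio of ftz-f1 passed 1.5-fold, the farthest being 0.56 for male fru+ over male fru-.

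Eip93F, which specifies adult fates, lies on chr3R:21949114-22014539 and was covered more in the fru- lists. Peaks numbered 10 in male and 10 in female fru+ neurons, and 13 in male and 11 in female fru- neurons, and they covered 7158, 7882, 9585 and 9180 bp. The log2 ratio of covered sequence was -0.42 for male fru+ over male fru-, the 9.01 percentile among genes of its length decile. It was -0.22 for female fru+ over female fru-, the 20.4 percentile. These percentiles were picked from those of all 10 members in the 4 pairs, and no difference from other genes was tested. An intron region (chr3R:21992154-21992477) was in both fru- lists alone, with 2.84 in male fru- and 2.24 in female fru-, and another weak one was in male fru- alone. The intron region chr3R:21955186-21956182 had 2.8 in male and 3.34 in female fru+ neurons, and 3.92 in male and 4.31 in female fru- neurons, whereas chr3R:21961789-21962836 had 4.44, 4.22, 3.64 and 3.59. Over 10 shared regions the centred log2 ratio of male fru+ over male fru- had a median of 0.14, with 3 below 0. For female fru+ over female fru- the median was -0.08, with 6 of 10 below 0. The larger coverage in the fru- lists thus did not go with higher peaks over the whole gene.

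Both start sites of Eip93F were open in every list. At Eip93F-RA and Eip93F-RC the fold enrichment was 10.1 in male and 8.8 in female fru+ neurons, and 10.5 in male and 9.68 in female fru- neurons. At Eip93F-RB it was 8.62, 8.5, 9.24 and 9.89. The female fru- peak at Eip93F-RB was listed with a -log10 q of 18.3, against 107 to 213 in the other lists, and its fold enrichment and p-value could not be reconciled with a single pileup, so its rank in that list is unreliable.

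**Figure D5:**
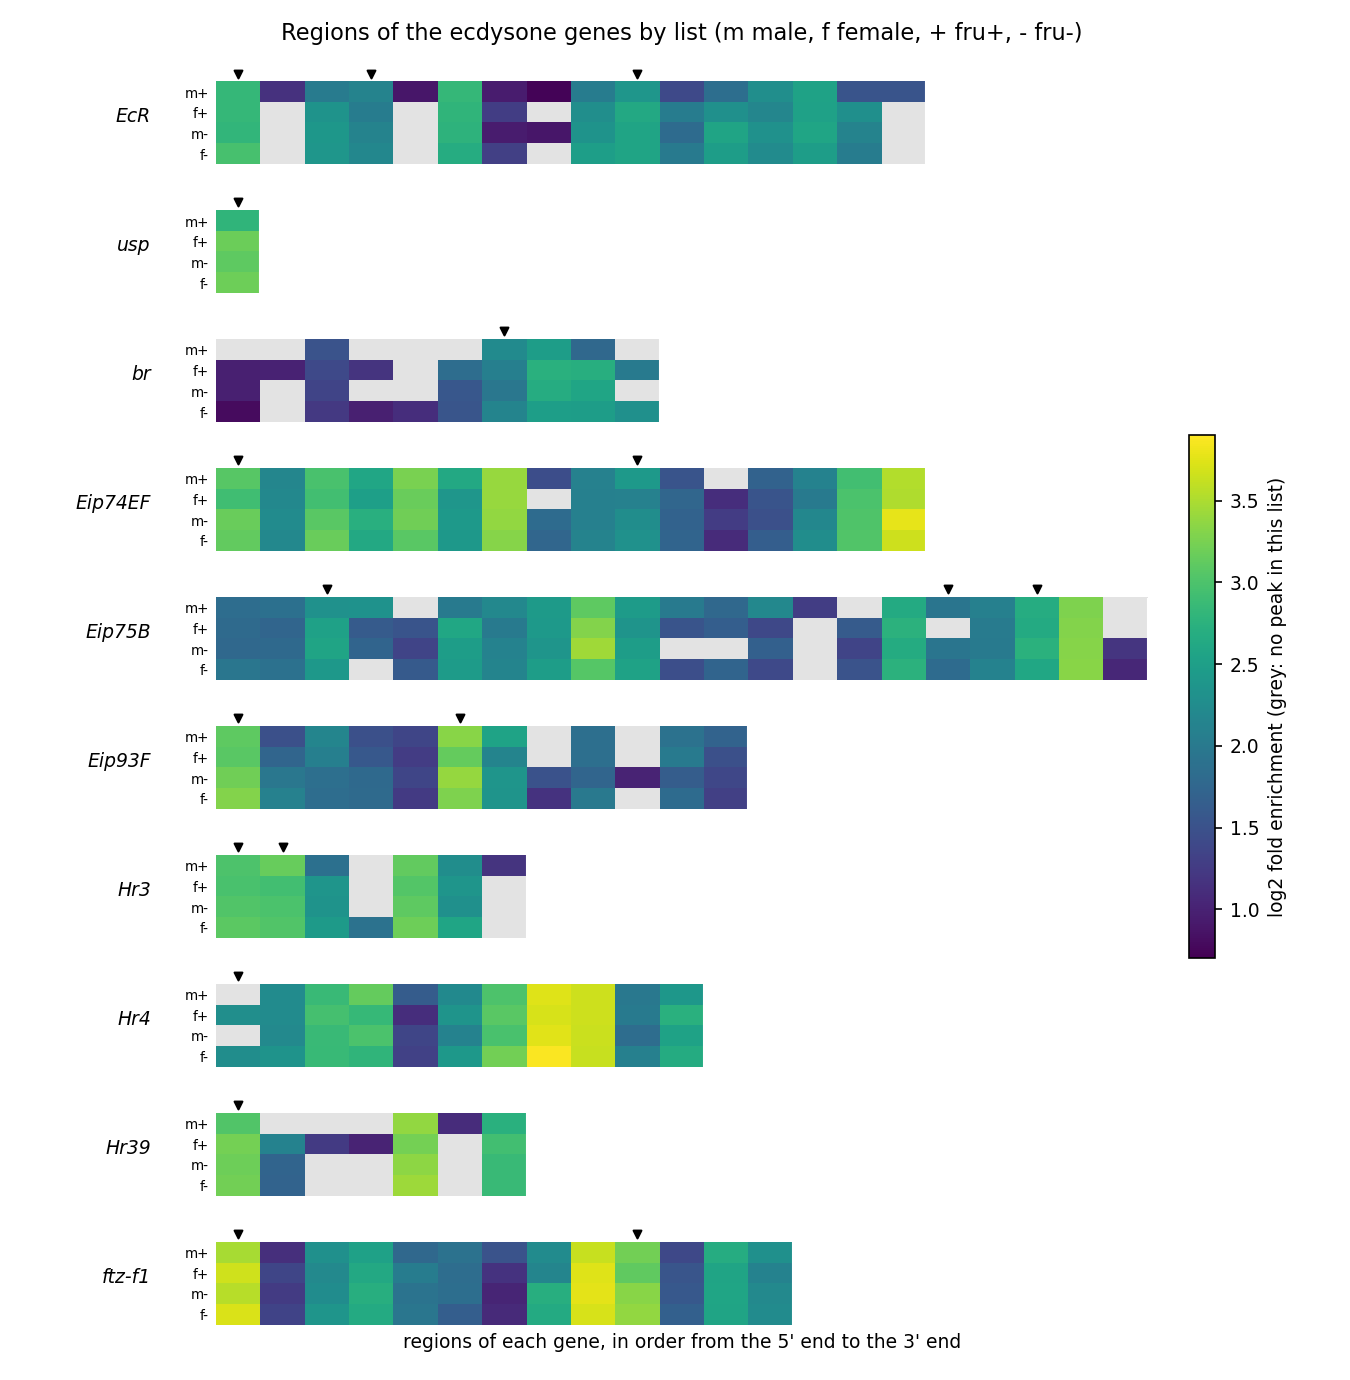
Log2 fold enrichment of the 114 member regions, 1 block per gene and 1 column per region in order from the 5' to the 3' end, with 1 row per list; grey marks a region with no peak in that list and triangles mark regions at a start site of the gene. Eip74EF, Hr4 and ftz-f1 hold the brightest columns, the columns of usp and ftz-f1 are filled in all rows, and Hr39 and br hold the most grey relative to their regions.

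Summits at the members varied between lists about as much as elsewhere. In the 85 member regions in all 4 lists the summits of the 4 lists spanned a median of 57 bp, against 59 bp over 8256 regions. They lay within 50 bp of each other in 40 regions (47.1%), against 44.8% of all. In these 85 regions the median fold enrichment was 4.96 in male and 5.17 in female fru+ neurons, and 5.39 in male and 5.56 in female fru- neurons. Over all shared regions it was 5.27, 5.47, 5.56 and 5.7, in the same order. Male fru+ had the lowest of the 4 values in 30 of the 85 (35.3%), against 45.3% of all shared regions.

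Start sites of the members were open about as often in each group. Of 36 start sites 20 had a peak within 50 bp in male and 20 in female fru+ neurons, and 19 in male and 21 in female fru- neurons. Over all protein-coding genes the share was 42.5%, 42.1%, 43.1% and 43% of 19607 start sites. The differences between lists were those named above, at Eip75B-RA, br-RH and the first start of Hr4.

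Sequence motifs of the receptors were searched on both strands of the 151 bases around the summit of each region. The half-site AGGTCA was in 12 of 114 member regions (10.5%) and in 3.15% of all 14709. Of the 12 regions 4 lay in ftz-f1, 3 in Hr4 and 2 in Eip74EF. The longer CAAGGTCA, which holds AGGTCA, was in 2 member regions (1.75%) and in 0.415% of all. These 2 are the br intron site that was lowest in male fru+ and the Hr39 intron site absent from it, both shown above. Male fru+ was also lowest in 30 of the 85 member regions in all lists and lacked others, so 2 such sites are no result about the motif. Both matches lie near an edge of the 151 bases, away from the summit. TCANTGA, the core of an inverted repeat of the half-site with 1 base between, was in 3 member regions (2.63%) and in 2.43% of all. CCGGAAGT, an ETS site of the kind bound by E74, was in 0 member regions and in 0.313% of all. A match is a description of the sequence, and binding was not measured.

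The rest of the pathway was read through lists of genes, on the autosomes and the X. Over all regions, 57.8% on the autosomes and 48.9% on the X were in all 4 lists. The share of all genes with a peak was not taken, so the counts of genes below are a description only. Of 11 genes of hormone synthesis, breakdown and import 9 had no peak in any list, among them spo, phm, dib, sad and shd, which encode enzymes of ecdysone synthesis. The ecdysone importer EcI (annotated as Oatp74D) and ecd had 2 peaks in every list. All 7 coregulators had a peak in every list, and 24 of their 32 regions were in all lists. The receptor coactivator tai had 10 peaks in male and 11 in female fru+ neurons, and 11 in male and 10 in female fru- neurons. All 11 regions of Met, gce and Kr-h1, genes of the juvenile hormone response, were in all lists, and Kr-h1 was also counted among the ecdysone-induced genes.

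Of 14 other nuclear receptors 10 had a peak in every list, and 4 (tll, eg, kni, knrl) had none. Of their 19 regions 17 were in all lists. Hr78 had 2 peaks in male and 1 in female fru+ neurons, and 2 in male and 2 in female fru- neurons. All 10 genes listed as other ecdysone-induced genes had a peak in every list, and 30 of their 46 regions were in all lists. The 10 include mld, although it is a factor needed for spok expression. Eip63E, a cyclin-dependent kinase, had 7 peaks in male and 9 in female fru+ neurons, and 8 in male and 7 in female fru- neurons, with 5 of 12 regions in all lists. DopEcR, a membrane receptor of dopamine and ecdysteroids, had 3 peaks in male and 4 in female fru+ neurons, and 5 in male and 3 in female fru- neurons.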

How the data were processed

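The authors used cutadapt for trimming, Bowtie2 for alignment to dm6, SAMtools and Picard for filtering and duplicates, and MACS2 for peaks at an FDR of 0.001. Versions are not given in the sources used here, and no Tn5 offset of the reads is described. The deposited lists, 1 per group, give each peak's fold enrichment (a ratio of summit pileup to local background), p-value and q-value on a -log10 scale, and the summit's distance from the peak start. Members and gene lists were chosen with earlier results of these data known.

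The annotation was Ensembl release 115 (BDGP 6.54), and all 10 member coordinates equalled those of RefSeq, whose release of the same assembly gave the sequences. Pileup and background were solved from fold and p, within 0.01 of the -log10 p. This worked for 11307 of 11307, 11218 of 11224, 11217 of 11218 and 11605 of 11607 peaks (male fru+, female fru+, male fru-, female fru-). Counting intervals are exact (Clopper-Pearson for the ratio of 2 pileups with backgrounds held fixed, Poisson for 1) and cover counting error only. Variation between replicates is not in them and could not be estimated from 1 list per group. Of several peaks in a region, the highest fold was taken. In full are given regions at a member start site, regions not in all lists with strength above 25, and regions past 1.5-fold in a pair; regions named outside this rule, and the sequences shown, were chosen after their values were seen. The lists' symbols were matched by symbol or RefSeq synonym, phm and EcI by hand (as phtm and Oatp74D). Alternatives were a stricter q, other windows, overlaps, equal list lengths, strong regions alone, no centring, other folds, another choice of peak and a wider start site distance. Scripts ran in Python 3.11.15 with numpy 2.4.6, pandas 2.3.3, scipy 1.17.1 and matplotlib 3.10.9 and were tested on simulated data.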

Additional observations from a re-analysis of the deposited data

How the results depend on the processing

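Every group had 1 pooled list, so no replicate could be left out. No paired analysis was possible because the lists hold no value per replicate. Counts of peaks, covered bp and start sites stayed within 1.5 times under every alternative run for them. Of 114 regions, 75 had strength above 50, of which 73 were in all lists. Among these strong regions, male fru+ and male fru- differed in 0 in each direction. Male fru+ had 1 that female fru+ lacked and 0 were the reverse. Female fru+ and female fru- differed by 1 in each direction, and male fru- had 1 that female fru- lacked and 0 were the reverse. Member regions not in all lists had a median strength of 28.2, so this filter removed many of them in advance. The same counts over all strong regions were not taken, so the counts at strong regions are no result about the members. At 1.2-fold 22 of 89 member regions passed between male fru+ and male fru- (24.7%, against 25% of all shared regions), and 20 of 88 between male fru+ and female fru+ (22.7%, against 27.9%). Between female fru+ and female fru- 9 of 96 passed (9.38%, against 17.7%), and between male fru- and female fru- 12 of 95 (12.6%, against 16.9%). At 2-fold 0 of 89 passed between male fru+ and male fru- (against 0.293% of all shared regions), and 0 of 88 between male fru+ and female fru+ (against 0.357%). Another alternative, chosen after seeing the data, took the summit pileup scaled to depth in place of fold enrichment. With it 1 of 95 member regions passed 1.5-fold between female fru+ and female fru- (1.05%, against 2.34% of all shared regions). Under that measure the ratio of male fru+ over male fru- was -0.50 at the EcR region 48.3 kb into the gene and 0.58 at the proximal Eip75B site, and male fru+ over female fru+ was -0.56 at the EcR region 46.9 kb in, all under 1.5-fold. Without centring, the weak Hr4 region had 0.52. Depth limits the absences. The female fru+ list was the shallowest, so a peak missing there does not show closed chromatin. Males carry fewer copies of the X, so an X peak missing from a male list does not show it either.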

Other observations

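Other genes of the pathway are given as values, beside 57.8% of all autosomal regions and 48.9% of all X regions in all 4 lists. Of the 14 regions of tai 8 were in all lists, of the 6 of mld, a zinc finger factor needed for spok expression, 3 were, and of the 5 of DopEcR 2 were. For mld the counts were 5 peaks in male and 3 in female fru+ neurons, and 5 in male and 5 in female fru- neurons. Smr, an X-linked corepressor bound by EcR, had 10 of 12 regions in all lists, and its peaks covered 7107 bp in male and 8413 bp in female fru+ neurons, and 9056 bp in male and 9894 bp in female fru- neurons. Blimp-1, a repressor of ftz-f1, had 5 peaks in male and 4 in female fru+ neurons, and 4 in male and 5 in female fru- neurons. The nuclear receptor gene dsf, which acts in sexual behaviour, had 1100 bp covered in male fru+, 541 bp in female fru+, 539 bp in male fru- and 517 bp in female fru-, with 2 peaks in male fru+ and 1 in each other list.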
